A study of Mus musculus with 12 samples.

Results

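Ribosome biogenesis factors are the proteins that make ribosomes without being part of them. The members are genes whose symbol, on a probe with 1 symbol in the platform annotation, follows the naming of known assembly factors, such as Utp, Nop, Rrp, Exosc and named helicases and WD-repeat proteins. They are 73 of 10225 named genes and 145 of 28704 probes on the array. The rule uses names and no values, but it was drawn up with earlier results of these data known.

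In the nucleolus, RNA polymerase I copies a long precursor that holds the RNAs of both ribosomal subunits. Guide RNAs in box C/D and box H/ACA particles direct its methylation and pseudouridylation, the small subunit processome folds and cuts the part for the small subunit, and a separate chain of factors builds the large subunit. The particles are then trimmed, exported and given their last steps in the cytoplasm. These genes are known as a group that growth signals turn up in many cell types.

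MC3T3-E1 is a clonal osteoblast-like line from mouse calvaria. In the shear group (6 samples), confluent monolayers were placed in a parallel plate chamber under pulsatile flow, with a mean stress of 5 dyn per square cm, pulsing at 1 Hz, and kept there for 5 h. The control group (6 samples) was kept static in the same kind of set-up. Both groups were grown with 5% serum, and the medium of the flow period held 1% serum, which is entered for the control group too. How long the control samples were kept static is not given here. No allele or other agent distinguishes the groups, and the line is a clonal cell culture model in which flow came from a pump and not from bone. The labels do not say that samples came from separate cultures, so each p reflects only how much these samples vary, and that variation may be technical.

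Each of 6 spotted arrays took 2 samples of the same group, the odd-numbered replicate in Cy5 and the even-numbered one in Cy3. Replicates 1 and 2, 3 and 4, and 5 and 6 were taken to share an array, which the design text and dyes imply but do not state. A value is the log2 of a spot's net fluorescence over the median of its block, so 0 is a typical spot and 1 unit is a doubling. Between 80.3% and 82.6% of features had a value in 5 of the 6 shear samples, with 76.1% in shear replicate 2. In control samples the share was 78.8% to 82.9%, except for replicates 3 and 4 (72.9% and 64.2%), which share an array. Of 14 osteoblast markers 8 were tested. Mean log2 signals of Sparc, Serpinh1 and Col1a2 were 5.60, 4.72 and 4.45 in shear samples and 5.48, 4.50 and 4.40 in control samples, against Alpl at -0.95 and Msx2 at -2.28 in shear samples and -1.01 and -1.65 in control samples, while the defining markers Runx2 and Sp7 were not analysed here. Of the 8, Lox was higher (log2 change 2.10) and Dlx5 fell by 0.97 (adjusted p = 0.0255 and 0.0492, limma, Benjamini-Hochberg). None of the tested markers of macrophages (4), endothelium (5), adipocytes (4), chondrocytes (4) and muscle (4) passed, with changes from -0.68 (Lyz2) to 0.44 (Esam), and their part in the results was not tested. The brightest of these were Tnnt1 of muscle, with means of 3.20 in shear and 3.79 in control samples, and Col11a1 of cartilage, with 1.99 and 2.33. In bulk RNA, more RNA per cell and more cells that express a gene cannot be told apart.

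Of the 73 members, 71 were tested, for which shear and control each had to have 4 or more measured samples. Exosc4, an exosome subunit, had a value in shear replicates 5 and 6 (-2.54 and -2.08) and in control replicates 5 and 6 (-2.07 and -1.74), and in no other sample. Rrp15, a pre-60S factor, had none in shear samples and values of -0.84 and -0.71 in control replicates 5 and 6. Neither supports a comparison.

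Under shear, 13 of the 71 tested members were higher and 0 were lower, by limma with Benjamini-Hochberg adjustment over all 15603 features and a threshold of 0.05. Over all features the same rule called 1.28% higher and 0.205% lower. At an unadjusted p under 0.05, 32 members were higher and 0 lower, against 10.4% and 3.39% of all features. The median log2 change was 0.61 over the tested members and 0.11 over all features, and 63 of 71 members, against 61.0% of features, lay above 0. A log2 change above 1 was found for 21 of 71 members (29.6%), against 4.03% of features. Of 68 members measured in all 12 samples, 19 had every shear value above every control value and 0 the reverse, against a background of 6.08% and 1.13% of the 12227 features measured in all samples. The p-values count 12 samples on 6 arrays and can be too small. With the samples of each array averaged, 2 members passed, Utp18 and Pno1, against 0.417% of all features called higher. With 1 array left out the count was 1 to 7, the lowest without shear replicates 3 and 4. Over all features the count called higher was then 34 to 111, against 200 in the main fit.

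**Figure D1:**
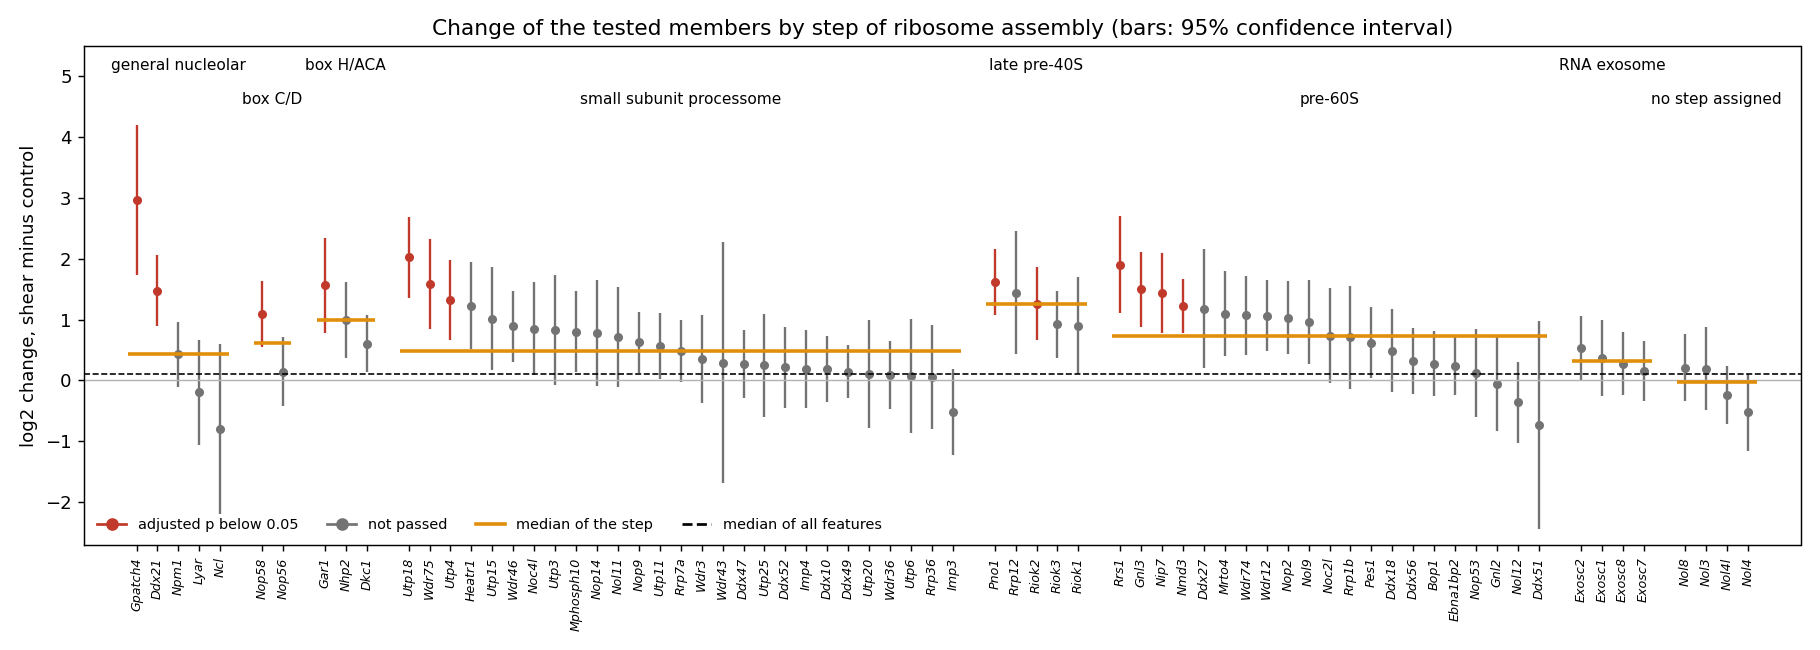
Log2 change (shear minus control) of the 71 tested members on the vertical axis, ordered by step of ribosome assembly, with 95% confidence intervals; red points passed the test, orange lines are the step medians and the dashed line is the median over all features. The 13 red points are spread over 6 of the 8 groups of genes, and the highest step median is that of late pre-40S factors, 1.26.

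The median over members was higher in each shear sample than in any control sample. Over the 68 members measured everywhere, the median log2 signal was 1.03 (shear 5) to 1.33 (shear 3) in shear samples, with a mean of 1.20 ± 0.10 (SD, n = 6). In control samples it was 0.18 (control 4) to 0.60 (control 2), with a mean of 0.43 ± 0.18 (SD, n = 6), so the ranges do not overlap. All features measured in all samples had medians of 0.52 to 0.77 in shear and 0.20 to 0.68 in control samples, and those ranges overlap. The weak array of control replicates 3 and 4 gave the lowest values of both measures. Taken relative to all features of the same sample, the members stood at 0.34 to 0.67 in shear samples and at -0.25 to -0.01 in control samples. Without that array 4 members passed, among 87 features called higher, and the median change of the members was 0.48.

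**Figure D2:**
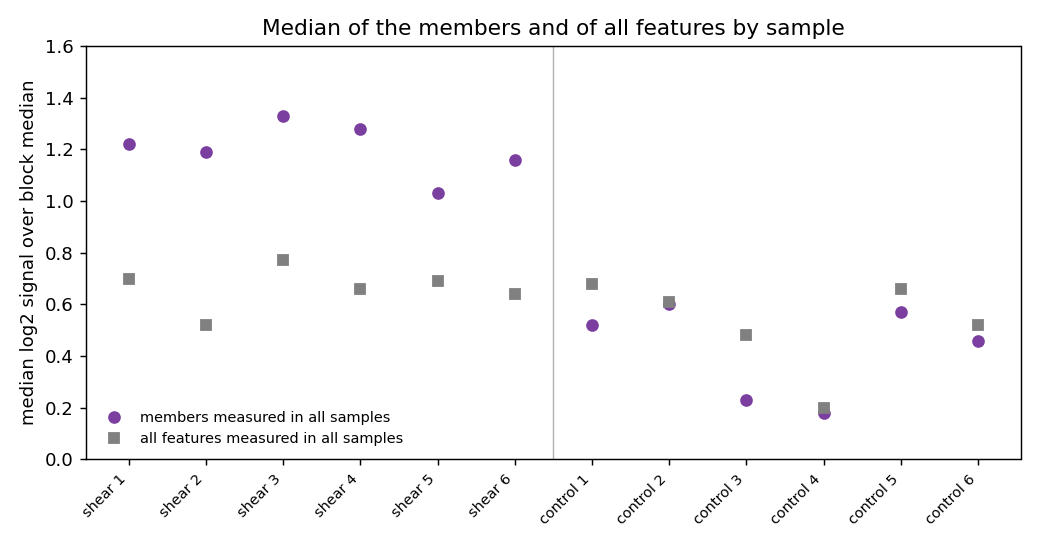
Median log2 signal (vertical axis) of the 68 members (purple circles) and of all 12227 features (grey squares) measured in every sample, with shear samples left of control samples. The members lie above the features in each shear sample, by 0.34 to 0.67, and below them in each control sample, by 0.01 to 0.25.

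The calls of Utp18, Pno1 and Nmd3 were lost in 1 or 2 of 33 alternative analyses, fewer than those of the other 10. Their promoters are shown for that reason, each with its E-box (letters CACGTG, the same on both strands and known as a site of Myc-Max and related factors) in capitals. The sequences are RefSeq windows that run from 250 bases before to 50 bases after the annotated start. In Utp18 the first base of the E-box is at position -20 from the start, in Nmd3 at -114 and in Pno1 at 38. The 3 do not stand for all called members: of 11 with a window 4 held an E-box, and those of Ddx21 and Gnl3 held none. Other letters are not marked, though the Utp18 window also holds CCGGAAG and the Pno1 window the NRF1 motif, both counted below. A part of Myc was not tested.
Utp18 promoter, GRCm38.p6 chr11:93885717-93886016, minus strand: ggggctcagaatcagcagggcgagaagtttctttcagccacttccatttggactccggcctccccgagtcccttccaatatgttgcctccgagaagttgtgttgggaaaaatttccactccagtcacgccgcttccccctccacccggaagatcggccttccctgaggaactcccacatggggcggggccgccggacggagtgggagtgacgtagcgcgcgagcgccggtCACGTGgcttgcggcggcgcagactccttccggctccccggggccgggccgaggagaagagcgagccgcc
Pno1 promoter, GRCm38.p6 chr11:17211540-17211839, minus strand: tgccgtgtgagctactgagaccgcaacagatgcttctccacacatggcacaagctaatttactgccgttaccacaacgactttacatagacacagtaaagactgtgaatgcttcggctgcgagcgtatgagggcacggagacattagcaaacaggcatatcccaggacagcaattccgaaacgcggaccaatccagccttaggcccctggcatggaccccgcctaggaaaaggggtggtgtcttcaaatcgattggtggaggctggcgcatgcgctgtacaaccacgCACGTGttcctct
Nmd3 promoter, GRCm38.p6 chr3:69721805-69722104, plus strand: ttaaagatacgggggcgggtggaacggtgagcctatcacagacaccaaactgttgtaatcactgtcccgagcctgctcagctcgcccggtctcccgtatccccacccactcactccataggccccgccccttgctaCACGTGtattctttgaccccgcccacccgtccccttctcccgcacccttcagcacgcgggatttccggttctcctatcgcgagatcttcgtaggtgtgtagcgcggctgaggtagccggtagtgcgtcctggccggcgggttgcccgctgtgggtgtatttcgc

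Of the 73 members, 59 had a promoter window in the RefSeq table, 69 windows in all. An E-box was in 21.7% of these windows, against 7.15% of all windows in the table. By gene, 13 of the 59 (22.0%) held one, against 8.09% of all genes. Among the 11 called members with a window, 4 held one, Utp4 being the fourth. The letters CCGGAAG on either strand, a core of sites for ETS factors, were in 21 of the 59 genes (35.6%), against 9.93% of all genes. Among the 11 called members with a window, 4 (36.4%) held them. The palindromic NRF1 motif was in 1 member gene, Pno1, against 1.07% of all genes. These are matches of letters, with no test of binding.

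The general nucleolar factors divided into 2 that rose and 3 that did not pass. Gpatch4, a G-patch protein of the nucleolus, had log2 signals from 1.16 through a median of 2.32 to 4.73 in shear samples, against -0.73, -0.28 and 0.25 in control samples. The groups did not overlap, and the 2 highest values (4.73 and 4.49) were those of shear replicates 1 and 2, which share an array. Its change was 2.97 ± 0.58 (SE, n = 6 per group), or 7.82-fold, the highest of all members, with adjusted p = 0.0239 (limma, Benjamini-Hochberg). Without the array of shear replicates 1 and 2 the change was 2.03 and still passed, while leaving out any of 4 other arrays (shear replicates 3 and 4, or any control array) or averaging each array ended the call. Ddx21, an RNA helicase that works with RNA polymerase I and in rRNA processing, lay between 2.18 and 3.01 (median 2.54) in shear samples, against 0.92 to 1.29 (median 1.07) in control samples. It rose by 1.48 ± 0.27 (SE) on the log2 scale, with adjusted p = 0.0193 (limma, Benjamini-Hochberg). Its 2 other probes gave 1.79 and 2.01 and passed too when every probe was tested. The call of Ddx21 was lost in 5 of 33 alternatives, with the arrays averaged (adjusted p = 0.0553, limma, Benjamini-Hochberg) and without any of 4 arrays (shear replicates 3 and 4 or 5 and 6, control replicates 3 and 4 or 5 and 6). Npm1 (nucleophosmin, a histone chaperone and scaffold of the outer nucleolus) stood at 0.43 and Lyar, a nucleolar zinc finger protein, at -0.19, and neither passed. The other probe of Lyar gave 1.14 with every shear value (0.69 to 2.04) above every control value (-0.03 to 0.58) and did not pass either (adjusted p = 0.0685, limma, Benjamini-Hochberg, every probe tested).

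Ncl, which encodes nucleolin, an abundant nucleolar RNA-binding protein, gave different answers by probe. The probe that stood for the gene ranged from -0.02 to 2.44 in shear and from -0.55 to 3.79 in control samples, a change of -0.80 ± 0.66 (SE) that did not pass. Of its 4 other probes, 1 fell by 2.48 ± 0.45 (SE) on the log2 scale and 1 fell by 1.08 ± 0.24, with adjusted p = 0.0152 and 0.0397 (limma, Benjamini-Hochberg, every probe tested). The remaining 2 stood at 0.10 and 0.49 and did not pass. The probe that fell most lay between -1.69 and 1.89 (median 0.39) in shear samples, against 2.11 to 3.45 (median 2.71) in control samples, with no overlap. On that probe, on the other that fell and on the one that stood for the gene, the Cy3 sample was above the Cy5 sample on 6 of 6 arrays, while on the probe at 0.10 it was so on 0 of 6. Each group held 3 Cy5 and 3 Cy3 samples and the fit carried a dye term, so a dye effect that is equal in both groups cancels from these changes. On the probe that stood for the gene, the change was -0.06 without the array of control replicates 3 and 4 and -1.85 without that of control replicates 1 and 2. No direction is given for Ncl.

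In the box C/D particle, which guides ribose methylation of rRNA, 1 of 2 tested members rose. Nop58, a scaffold of the particle, lay between 2.65 and 3.66 (median 3.42) in shear samples, against 2.01 to 2.39 (median 2.17) in control samples. It rose by 1.09 ± 0.26 (SE), or 2.13-fold, with adjusted p = 0.0488 (limma, Benjamini-Hochberg), a call lost in 25 of 33 alternatives. Another of its probes gave 1.47 and passed when every probe was tested, while 2 more gave 0.11 and -0.79. Its partner scaffold Nop56 was at 0.14 ± 0.26 (SE) on the probe that stood for it and did not pass. Of its 3 other probes, 2 passed higher, at 1.38 and 1.39, and 1 stood at 0.38. The methyltransferase Fbl was not analysed here.

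In the box H/ACA particle, which guides pseudouridylation, the 3 tested members had changes of 1.57, 1.00 and 0.61. Gar1, a core protein, lay between -0.68 and 0.16 (median -0.30) in shear samples, against -2.49 to -1.04 (median -1.87) in control samples. The value below which 5% of a sample's signals fell was -2.87 to -2.18 across samples, so its control values came near the lowest measured signals. It rose by 1.57 ± 0.37 (SE), or 2.96-fold, with adjusted p = 0.0486 (limma, Benjamini-Hochberg). That call did not hold in 20 of 33 alternatives. Nhp2, another core protein, stood at 1.00 ± 0.29 (SE) with its other probe at 1.02, and neither passed. Dkc1, the pseudouridine synthase dyskerin, had a median of 2.27 in shear samples and 1.80 in control samples, without overlap of the groups. Its change of 0.61 ± 0.22 (SE) did not pass on that probe, while another of its probes gave 1.63 and passed, with adjusted p = 0.0126 (limma, Benjamini-Hochberg, every probe tested).

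The small subunit processome was the largest group, with 27 tested members, of which 3 rose and 0 fell. The median change was 0.49, and 26 of 27 lay above 0. Utp18, of the UtpB module that binds the start of the precursor, lay between 1.43 and 1.85 (median 1.72) in shear samples, against -1.13 to 0.10 (median -0.27) in control samples. The groups stood more than 1 unit apart. It rose by 2.02 ± 0.31 (SE), or 4.07-fold, with adjusted p = 0.00527 (limma, Benjamini-Hochberg), the lowest of all members. The call held in 32 of 33 alternatives and with the arrays averaged (adjusted p = 0.0287, limma, Benjamini-Hochberg), and it was lost without the array of shear replicates 3 and 4. Of its 3 other probes, 2 passed higher, at 1.24 and 1.04, and 1 near the lowest signals gave -0.31. The other 3 tested UtpB members, Utp6, Wdr3 and Wdr36, stood at 0.07, 0.36 and 0.10 and did not pass. Pwp2 and Tbl3 are UtpB subunits outside the naming rule. Pwp2 stood at 1.52 ± 0.38 (SE) with no overlap of the groups and did not pass (adjusted p = 0.0682, limma, Benjamini-Hochberg). Tbl3 stood at 0.43 ± 0.26 (SE) with groups that overlapped and did not pass either (adjusted p = 0.505, limma, Benjamini-Hochberg).

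The UtpA module assembles first on the precursor and is known to link transcription with processing. Of 5 tested members counted in it here (Heatr1, Utp4, Utp15, Wdr43 and Wdr75) 2 rose, and their median change was 1.23. Nol11, also a UtpA subunit in mammals, was left out of that count and stood at 0.71 ± 0.38 (SE) without passing. Wdr75 lay between 0.71 and 1.62 (median 1.36) in shear samples, against -1.25 to 0.05 (median -0.25) in control samples, and rose by 1.59 ± 0.35 (SE), with adjusted p = 0.0382 (limma, Benjamini-Hochberg). Utp4 lay between -0.41 and 1.03 (median 0.75) in shear samples, against -1.24 to -0.33 (median -0.83) in control samples, with shear replicate 2 inside the control range. It rose by 1.32 ± 0.31 (SE), with adjusted p = 0.0467 (limma, Benjamini-Hochberg). The other 2 probes of Utp4 gave 1.01 and 0.10 and did not pass, and with its probes averaged the change was 0.81 and the call ended. The second probe of Wdr75 gave 1.37 and did not pass. The calls of Wdr75 and Utp4 were lost in 15 and 21 of 33 alternatives. Heatr1 stood at 1.23 ± 0.34 (SE) with no overlap of the groups (adjusted p = 0.0954, limma, Benjamini-Hochberg), and Utp15 at 1.02 ± 0.40, with its 3 other probes at 0.95, 1.06 and -0.46. Wdr43 was at 0.29 ± 0.93, with log2 signals from 0.99 to 5.12 in shear and from 0.94 to 4.81 in control samples. Its high values were those of 1 array per group, shear replicates 1 and 2 (5.06 and 5.12) and control replicates 5 and 6 (4.81 and 4.27). The other samples lay between 0.94 and 1.49, and its other tested probe gave 0.20.

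Of the Mpp10 complex, which joins the processome to the U3 guide RNA, the 3 tested members had changes from -0.52 (Imp3) through 0.19 (Imp4) to 0.80 (Mphosph10), and none passed on the probes that stood for them. Without the array of shear replicates 3 and 4, Imp3 was at -0.06 and Mphosph10 at 0.40. The other 2 probes of Mphosph10 gave 1.65 and 1.40, and the first passed with adjusted p = 0.00405 (limma, Benjamini-Hochberg, every probe tested). The remaining processome members ran from 0.06 (Rrp36) to 0.89 (Wdr46). Those with more than 1 tested probe were Wdr46, Nop14 (0.79), Nol11 (0.71), Nop9 (0.63), Utp25 (0.25) and Ddx10. All of their other tested probes lay above 0 as well, as did 61.0% of all features. The change of Nol11 ran from 0.37 without control replicates 5 and 6 to 1.17 without control replicates 1 and 2. The helicases Ddx47, Ddx52, Ddx10 and Ddx49 stood at 0.27, 0.22, 0.19 and 0.15.

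**Figure D3:**
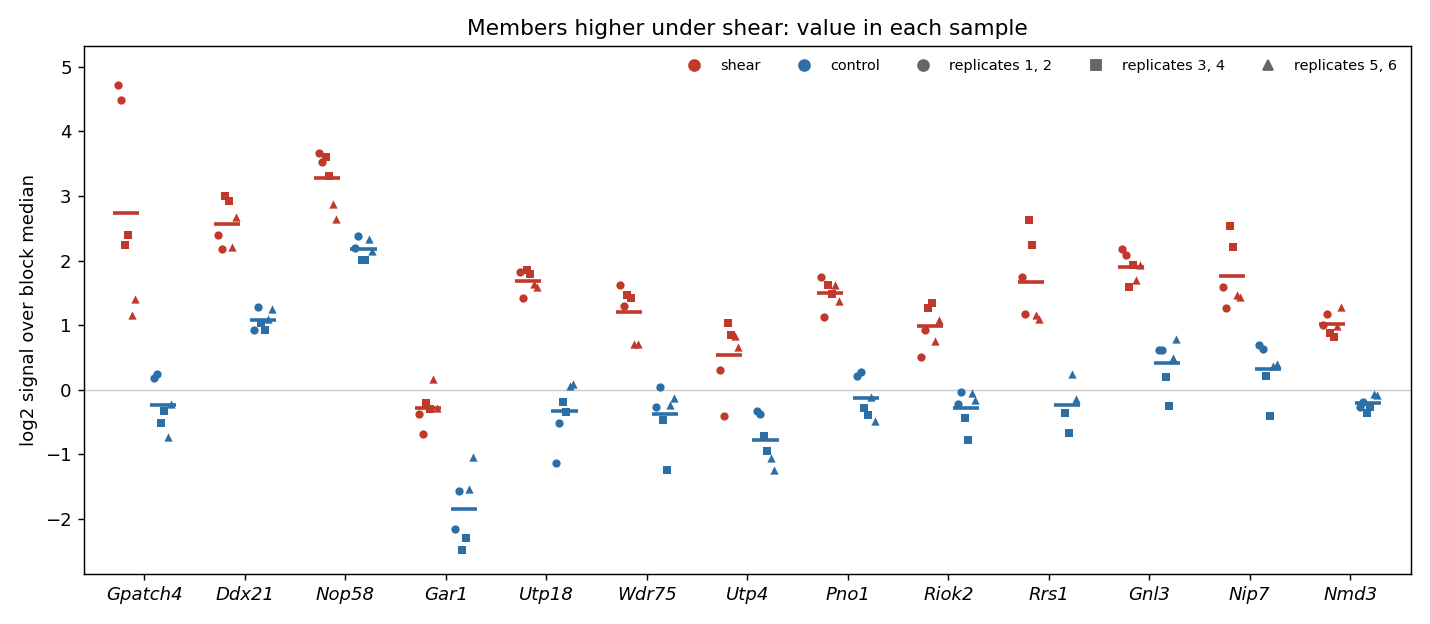
Log2 signal over the block median (vertical axis) of the 13 members that rose, in each shear sample (red, left) and control sample (blue, right), with group means as lines and marker shapes for the samples of 1 array. Only Utp4 has a shear value inside the control range, and Gpatch4 has the widest spread among shear samples, from 1.16 to 4.73.

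Late pre-40S factors, which finish the small subunit after it leaves the processome stage, all had positive changes, and 2 of 5 rose. Their median of 1.26 was the highest of the steps, over few genes. Pno1, an RNA-binding protein that partners the nuclease Nob1, lay between 1.12 and 1.75 (median 1.55) in shear samples, against -0.48 to 0.28 (median -0.20) in control samples. It rose by 1.62 ± 0.26 (SE), or 3.08-fold, with adjusted p = 0.00613 (limma, Benjamini-Hochberg). With the arrays averaged it held (adjusted p = 0.0420, limma, Benjamini-Hochberg), and 1 of 33 alternatives ended it, without the array of shear replicates 3 and 4. The atypical kinase Riok2 lay between 0.51 and 1.34 (median 1.00) in shear samples, against -0.78 to -0.04 (median -0.19) in control samples, and rose by 1.26 ± 0.28 (SE), with adjusted p = 0.0423 (limma, Benjamini-Hochberg). That call was lost in 19 of 33 alternatives, and its other probe gave 1.14. The related kinases Riok3 and Riok1 stood at 0.92 ± 0.26 and 0.90 ± 0.37 (SE) and did not pass, and Riok1 was at 0.57 without the array of control replicates 3 and 4. Rrp12, a HEAT-repeat protein of pre-ribosome export, stood at 1.44 ± 0.47 without overlap of the groups, yet did not pass (adjusted p = 0.170, limma, Benjamini-Hochberg).

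Among pre-60S factors 4 of 21 tested members rose and 0 fell, with a median change of 0.74. Rrs1, which with Rpf2 brings the 5S particle into the large subunit precursor, lay between 1.10 and 2.62 (median 1.46) in shear samples, against -0.67 to 0.24 (median -0.25) in the 4 control samples with a value. The control samples without a value were replicates 1 and 2, taken to share an array, and those with one include the weak array of replicates 3 and 4. Rrs1 rose by 1.90 ± 0.37 (SE), or 3.74-fold, with adjusted p = 0.0282 (limma, Benjamini-Hochberg). Gnl3, the GTPase nucleostemin, lay between 1.59 and 2.19 (median 1.94) in shear samples, against -0.26 to 0.78 (median 0.55) in control samples, and rose 2.82-fold (SE 0.29 on the log2 scale), with adjusted p = 0.0239 (limma, Benjamini-Hochberg). The groups of Gnl3 did not overlap. Nip7, which binds the large subunit precursor, lay between 1.27 and 2.53 (median 1.54) in shear samples, against -0.41 to 0.69 (median 0.38) in control samples. It rose by 1.44 ± 0.31 (SE), with adjusted p = 0.0365 (limma, Benjamini-Hochberg), and its second probe gave 1.75 and passed. The calls of Rrs1, Gnl3 and Nip7 were lost in 6 of 26, 8 of 33 and 16 of 33 alternatives.

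Nmd3, the adaptor that carries the large subunit out of the nucleus, had the smallest standard error of the members that rose. It lay between 0.82 and 1.29 (median 0.99) in shear samples, against -0.36 to -0.07 (median -0.23) in control samples. It rose by 1.23 ± 0.21 (SE), or 2.35-fold, with adjusted p = 0.00992 (limma, Benjamini-Hochberg). Of 33 alternatives 2 ended the call, with the arrays averaged (adjusted p = 0.0617, limma, Benjamini-Hochberg) and without the array of shear replicates 5 and 6.

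The other tested large subunit factors did not pass, with changes from 1.18 (Ddx27) down to -0.73 (Ddx51). Of the Pes1, Bop1 and Wdr12 complex, which acts in processing of the large subunit RNAs, Wdr12 stood at 1.06 ± 0.27 (SE) with no overlap of the groups (adjusted p = 0.0752, limma, Benjamini-Hochberg). Pes1 was at 0.62 ± 0.28, with its other probes at 0.52 and 0.58, and Bop1 at 0.28 ± 0.25. Mrto4, which holds the place of the stalk protein on the precursor, stood at 1.09 ± 0.33, and its other probe passed at 1.45. The rRNA methyltransferase Nop2 (1.04 ± 0.28) and the helicase Ddx27 (1.18 ± 0.46) had groups that did not overlap. The change of Ddx27 was 0.56 without the array of control replicates 3 and 4, which were at -0.81 and 0.18 against 1.44 to 1.70 in the other control samples. At the low end, Gnl2, Nol12 and Ddx51 had changes of -0.06, -0.36 and -0.73. Ddx51 lay between -1.10 and -0.19 in shear samples and between -1.48 and 3.41 in control samples, and its other probe gave 0.15. Its change was 0.71 without the array of control replicates 1 and 2. The other probe of Nol12 gave 0.37.

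The RNA exosome, which trims the ends of precursor RNAs, had the lowest median change of the assembly steps, 0.32. Its 4 tested subunits stood at 0.53 (Exosc2), 0.37 (Exosc1), 0.28 (Exosc8) and 0.16 (Exosc7), none passed, and their groups overlapped. The 95% confidence intervals reached up to 1.06 for Exosc2 and 0.64 for Exosc7. Whether the exosome differs from other steps was not tested. The 4 members with no assembly step assigned were Nol8 (0.21), the apoptosis repressor Nol3 (0.20), Nol4l (-0.24) and Nol4 (-0.53), with a median of -0.02. Without them 13 of 67 members rose and the median was 0.63.

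Several probes of a gene bore on 37 tested members. Of their 62 other tested probes, 52 had the sign of the probe that stood for the gene, and among the 7 called members with other probes it was 11 of 13. As 8 of the 62 lay below 0, most would share a positive sign in any case. Where the probe that stood for the gene was below 0, agreement was 2 of 4 for Ncl and 2 of 3 for Nol4l. The other probes of Ddx51, Lyar and Nol12 had the opposite sign. Of the other probes 11 passed higher and 2 lower, both of Ncl, against 1.42% of all probes called higher. With every probe tested, 17 members had a probe that passed higher, the 13 and Dkc1, Mphosph10, Mrto4 and Nop56. Npm1 had 1 probe that averaged 3.09 in shear and 4.59 in control samples and did not pass, beside 3 with changes between 0.41 and 0.90. On the first of these probes the shear arrays stood apart. Shear replicates 1 and 2 were at 0.42 and 0.37, and replicates 3 and 4 at 3.28 and 3.79. Shear replicates 5 and 6, at 5.25 and 5.44, lay above all control values (4.19 to 4.87). Npm1 is known to have processed copies elsewhere in the genome, and cross-hybridization was not tested.

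**Figure D4:**
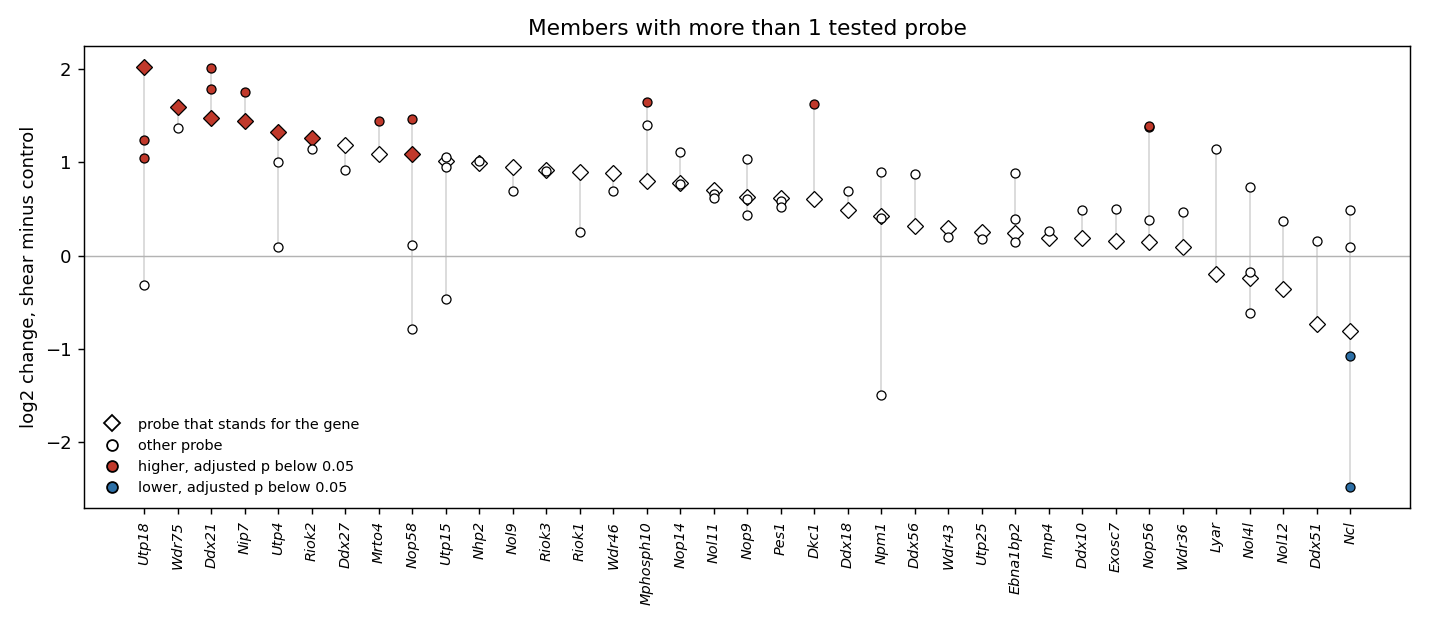
Log2 change (shear minus control, vertical axis) of every tested probe of the 37 members with more than 1; diamonds are the probes that stand for a gene, circles the others, and filled symbols passed. The probes of Ddx21 lie between 1.48 and 2.01, while those of Ncl spread from -2.48 to 0.49.

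Ribosome biogenesis genes outside the naming rule were described from a list of 84 genes, of which 68 were tested. Of these 5 rose and 0 fell, 7.35% against 1.28% of all features, with a median change of 0.42. Those that rose were Rsl1d1, a nucleolar protein with a ribosomal L1 domain (1.81 ± 0.36 SE), Nifk, a nucleolar partner of Ki-67 (1.71), the pre-60S factors Brix1 (1.45) and Ppan (1.03), and Isg20l2, a nuclease of large subunit RNA processing (1.05). In that order their adjusted p was 0.0250, 0.0212, 0.00876, 0.0322 and 0.0451 (limma, Benjamini-Hochberg). The lowest changes were those of Nsa2 (-0.92 ± 0.51 SE) and of Tcof1, which supports transcription by RNA polymerase I (-1.09 ± 0.62), and neither passed.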

How the data were processed

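Total RNA of 12 MC3T3-E1 samples was measured on 6 2-colour spotted arrays. The deposited values are log2 values made by the authors, 1 per feature and sample, and the values themselves show net fluorescence over the median of a block of 598 features. Scanner, background correction and missing-value rule: not given in the sources used here. A change shared by every gene would be removed by such scaling.

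Each sample was centred on its median. Symbols of 18267 of 18511 single-symbol probes were matched to current ones by Entrez number. For each gene 1 probe was kept, from those with 4 or more of 6 values in both groups: the one with most values, then the brightest. This gave 15603 features. limma 3.58.1 (R 4.3.3) was fitted with group and dye, and with the array as a random block (correlation 0.736). Correlations of samples were 0.959 to 0.983 within arrays and 0.881 to 0.925 between arrays of a group. Benjamini-Hochberg adjustment ran across all features. Figures were drawn with matplotlib 3.10.9 under Python 3.11.15. Tested on simulated data for this comparison (15603 features), the fit recovered 26% of 100 simulated log2 changes of 1 and 90% of 100 of size 2, and 2 of 118 calls were false. The simulated noise was normal, with the same array correlation for every feature and no dye effect, as the fit assumes. Arrays that stand apart on single genes were not simulated, so the share of false calls may differ in the real data.

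The members, the gene lists and the steps were chosen with earlier results of these data known. Named genes were all members that passed, the 2 highest and 2 lowest of each step and a fixed list of well-known factors, with the same rule outside the naming rule, and other members are named from the same table after their values were seen. The alternatives concern the block, dye, scaling, filters, probe choice and left-out samples. The number of arrays limits the precision.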

Additional observations from a re-analysis of the deposited data

Results flagged for a closer look

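A probe of Wdr75 outside the comparison had a value in 4 shear samples and in no control sample, with a mean log2 signal of 0.55 ± 1.72 (SD) and a range of -0.94 to 2.05. The 2 tested probes of the gene gave 1.59 and 1.37. A check for single samples far from their group found 0 among 76 groups, but it cannot see the 2 samples of an array standing apart together. In Ddx51, control replicates 1 and 2 were at 3.41 and 2.94, against -1.48 to -0.98 in the other 4 control samples. In Wdr43, shear replicates 1 and 2 and control replicates 5 and 6 stood above the rest of their groups in the same way.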

How the results depend on the processing

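The count of 13 members higher was 27 without the array block, 2 with the arrays averaged, 7 with quantile normalization and 6 with the replicate block. It was 6 to 13 with 1 sample left out: 6 without shear replicate 1 or 6, and 7 without shear replicate 3 or 4 or control replicate 1, 3 or 5. With 1 array left out it was 1 to 7: 1 without shear replicates 3 and 4, 4 without shear replicates 5 and 6, control replicates 3 and 4 or control replicates 5 and 6, 5 without control replicates 1 and 2, and 7 without shear replicates 1 and 2. Over all features the count called higher was 200 in the main fit and 1270 without the array block. It was 65 with the arrays averaged, 114 with quantile normalization and 88 with the replicate block. With 1 sample left out it was 95 to 213, and with 1 array left out 34 to 111, so calls moved across the whole array too. Leaving out samples also removes data from the test, and otherwise the cause was not tested. The count of members lower was 0, and 1 (Ncl) with every probe tested. The median change stayed above 0 in 35 alternatives, from 0.39 (cyclic loess) to 0.71. Scaling moved the median of all features from 0.11 to -0.01 with cyclic loess and -0.02 when samples were centred on features measured in all 12, and the members stood 0.50, 0.41 and 0.49 above it. With quantile normalization they stood 0.38 above it. Over all features, calls were 200 higher and 32 lower (86.2% higher), against 165 and 74 with cyclic loess (69.0%) and 164 and 75 (68.6%) with that centring.

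Deviations of same-numbered shear and control samples had correlations of -0.09 to 0.10, and of -0.14 to 0.07 with the dye removed. Replicate 3 alone matched its own number best. Samples of an array vary together, so these values cannot exclude pairing by number. The main fit did not treat replicate numbers as pairs. With the replicate block, the adjusted p of the 13 (limma, Benjamini-Hochberg) ranged from 0.0119 to 0.112, and with the arrays averaged from 0.0287 to 0.141. The set of named genes defined above held 24 members that did not pass. Of these, 5 passed higher in some alternative on the values that stood for the gene, Nhp2, Dkc1, Rrp12, Riok3 and Wdr12. In the same set 6 changed sign. With every probe tested, other probes of Nop56 and Dkc1 in the set passed higher and of Ncl lower. Members named outside that set also moved. Without the array block Heatr1, Mrto4, Nop2, Nop9, Utp15 and Wdr46 passed higher, and with probes averaged Mphosph10 did. With 1 array left out, Gnl2 reached 0.24 and Ddx52 -0.10, against -0.06 and 0.22 in the main fit. With probes averaged, Lyar was at 0.47 and Nol12 at 0.0050. Nop56 was at -0.0029 with quantile normalization and at -0.09 with cyclic loess, and Rrp36 was at -0.08 with cyclic loess and with the centring. With 1 sample or array left out, the change was -0.46 to 0.28 for Lyar, -0.10 to 0.29 for Nop56, -0.21 to 0.29 for Rrp36, -1.49 to 0.71 for Ddx51 and -0.21 to 0.52 for Nol3. Depth is unknown for arrays, and low signals limit Gar1 and Exosc4.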
